A study of Rattus norvegicus with 26 samples.

Results

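The mitochondrial ribosome and the mRNAs it translates were followed through the soleus of 4 groups of rats. The members were taken by name from a table of gene counts. They were every gene whose symbol is Mrpl or Mrps followed by a number, which gave 76 mitochondrial ribosomal protein genes, and the 13 mRNAs encoded by mitochondrial DNA. Together they made 89 of the 34034 genes in the table. Of the 76, 46 carry Mrpl symbols (large subunit) and 30 carry Mrps symbols (small subunit). Subunit counts and medians below follow the symbol, also where a product is placed elsewhere, as for Mrps18a and Mrps36. All 13 mitochondrial mRNAs and 74 of the 76 ribosomal protein genes passed the filter on low counts. The exceptions were Mrpl53, with 0 counts in all libraries together (3 counts would be 0.0665 CPM, the counts scaled to library size), and Mrps21l, with 1 count in total.

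The soleus is a slow, oxidative postural muscle of the lower leg. The rats were aged females of generation 44 of lines bred for low or high running capacity (LCR and HCR), and the 26 libraries held 8 LCR sedentary, 8 HCR sedentary, 5 LCR running and 5 HCR running samples. Sedentary rats had no wheel, and runners were kept in pairs with a wheel for over 5 months, as voluntary exercise without a set dose. The runners formed a cohort of their own, so running, cohort and cage cannot be told apart. The lines come from selective breeding, so they differ at many loci and by no single engineered allele. In bulk muscle, fewer cells of a type and less RNA per cell cannot be told apart.

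The mitochondrial genome of mammals encodes core subunits of complex I (the ND genes), complex III (CYTB), complex IV (the COX genes) and ATP synthase (the ATP genes), together with the 2 ribosomal RNAs. It is transcribed as long precursors that are cut into single RNAs and given short poly(A) tails. The proteins of the mitochondrial ribosome are encoded in the nucleus, made in the cytosol and imported, so each ribosome joins products of both genomes. A slow muscle rich in mitochondria depends on this ribosome to keep its respiratory chain supplied. Libraries were primed from poly(A) tails, so a value here counts tailed or internally primed molecules, and tail length was not measured. ND6, the mRNA copied from the opposite strand to the rest, is known in human cells to carry little or no tail.

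Total counts ran from 1.10 to 2.52 megacounts per library, lowest in HCR running 5 and highest in HCR sedentary 3. Summed slow myofibre markers ranged from 27900 to 54700 CPM over all libraries, and all 10 were detected in every group. Summed fast myofibre markers (10 genes) ranged from 9340 to 15200 CPM in LCR sedentary, 4270 to 11000 in HCR sedentary, 8190 to 15500 in LCR running and 4100 to 7730 in HCR running rats. In the running rats 3 of the 10 fast markers were called lower in HCR, and no fast marker was called in the other 5 comparisons. No marker of fibroblasts, endothelium, smooth muscle, macrophages, adipocytes or Schwann cells was at 0 in any group. The titles of HCR running 5 and LCR running 5 name the other line. Both were kept under the line that their genotype and description give. For COX1 and the ribosomal protein tally between the running lines, values are also given without them and with the lines in their titles. The closing section does so for some counts of calls. Other results that rest on them, such as single genes for running in HCR rats, are given mainly under the kept lines.

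The 13 mitochondrial mRNAs took a mean share of the counts between 2.91% and 3.45% in the 4 groups. In LCR sedentary rats the share was 3.13% ± 0.442 (SD, n = 8), with a lowest value of 2.34%, a median of 3.07% and a highest of 3.75%. In HCR sedentary rats it was 3.45% ± 0.325 (n = 8), from 2.97% through a median of 3.48% to 3.92%. The sedentary lines overlapped over most of their range, and the lowest value of all belonged to LCR sedentary 5.

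The LCR running libraries, replicates 1 to 5, held 2.72%, 2.83%, 2.81%, 3.08% and 3.09%. The HCR running libraries held 3.06%, 3.15%, 3.43%, 3.53% and 3.37%. The running lines overlapped only between 3.06% and 3.09%, with means of 2.91% ± 0.171 in LCR and 3.31% ± 0.196 in HCR (n = 5 each). The 2 libraries with conflicting titles lay at 3.37% and 3.09%.

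The 76 ribosomal protein genes together took 0.495% ± 0.0159 of the counts in LCR sedentary and 0.490% ± 0.0195 in HCR sedentary rats (n = 8 each). The LCR running libraries held 0.568%, 0.528%, 0.479%, 0.504% and 0.460%, with a mean of 0.508% ± 0.0421. The HCR running libraries held 0.545%, 0.546%, 0.574%, 0.479% and 0.498%, with a mean of 0.528% ± 0.0390. The runners were spread more widely than the sedentary rats, whose highest value in either line was 0.514%. Above it lay 3 of the 5 HCR running libraries, and also LCR running 1 and 2, at 0.568% and 0.528%.

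Mitochondrial mRNA counts per ribosomal protein count averaged 6.31 ± 0.845 in LCR sedentary, 7.05 ± 0.735 in HCR sedentary, 5.77 ± 0.735 in LCR running and 6.30 ± 0.747 in HCR running rats. All 4 groups overlapped. The mean ratio was lower in the runners than in the sedentary rats of either line by less than 1 SD of the sedentary group in LCR and by about 1 SD in HCR. No test was made of these sums.

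**Figure D1:**
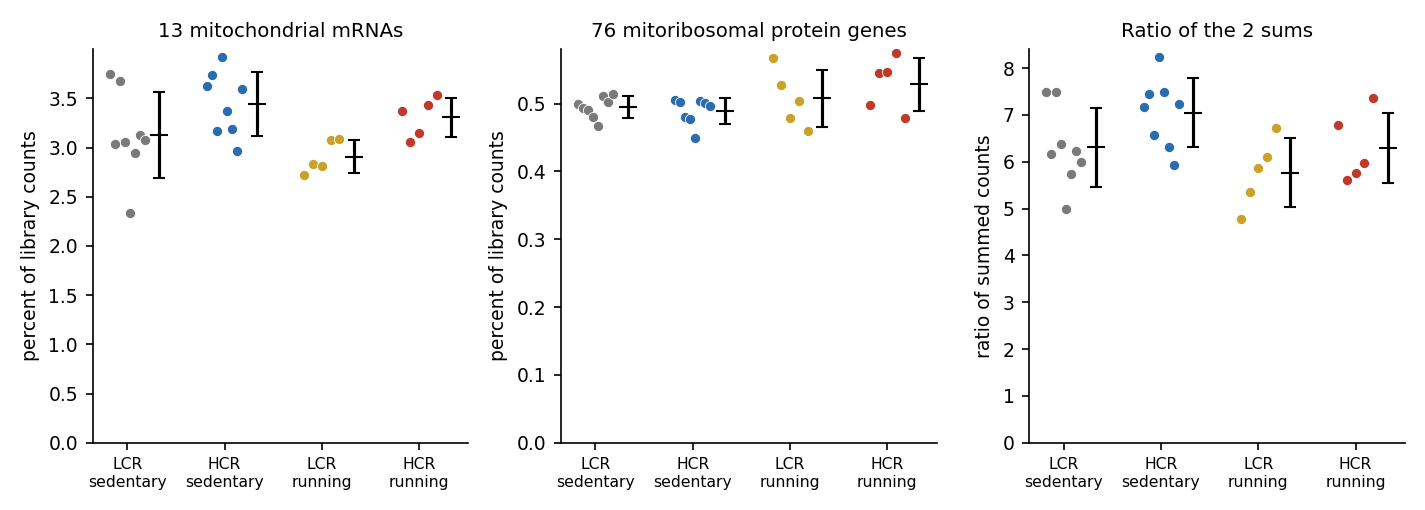
Share of library counts (percent, left and middle) taken by the 13 mitochondrial mRNAs and by the 76 ribosomal protein genes, and the ratio of the 2 sums (right), with 1 point per library and bars for group mean ± SD. The mRNA share averages between 2.91% and 3.45% and the protein share between 0.490% and 0.528%, with overlap between groups.

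Among the 13 mitochondrial mRNAs, none passed an adjusted p of 0.05 in any of the 6 comparisons by edgeR. In the sedentary line comparison 3 had an unadjusted p under 0.05, 2 higher and 1 lower, against 8.43% and 7.48% of all 10064 genes tested. There 10 of the 13 had a fold change above 0 with a median of 0.07 on the log2 scale. All genes together had a median of 0.01 there, with 51.4% above 0. The same comparison called 2.72% of all genes. In running rats the line difference had 10 of 13 above 0 and a median of 0.11, and 2 had an unadjusted p under 0.05, both higher, against 4.47% of all genes. DESeq2 called ND5 in the sedentary line comparison, where it called 3.23% of all genes, and none of the other mitochondrial mRNAs in any comparison.

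ND5, a proton-pumping subunit at the far end of the membrane arm of complex I, was the mitochondrial mRNA with the smallest p. Its level ran from 981 through a median of 1340 to 1544 CPM in LCR sedentary rats, and from 823 through 945 to 1234 CPM in HCR sedentary rats. The HCR values sat lower and overlapped the lower part of the LCR range. This was a log2 difference of -0.41 (SE 0.12, 95% interval -0.64 to -0.17, adjusted p = 0.0604). Leaving out 1 library at a time moved that adjusted p between 0.0244 and 0.125 and passed the threshold in 5 of 26 refits, among them the one without LCR sedentary 5 (0.0244).

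ND5 had a log2 difference of -0.17 between the running lines (SE 0.15, adjusted p = 0.821). In the LCR running libraries it stood at 957, 1298, 860, 892 and 1513 CPM. The HCR running libraries gave 770, 918, 1062, 946 and 1197 CPM. The groups overlapped, and the 2 LCR runners above 1200 CPM stood apart from the other three.

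ND3, a small complex I subunit of the hinge between membrane and peripheral arm, went the other way. It ran from 870 through a median of 1080 to 1711 CPM in LCR sedentary rats and from 1293 through 1520 to 1855 CPM in HCR sedentary rats. Only LCR sedentary 1 and 3, at 1711 and 1701 CPM, reached into the HCR range. This gave a log2 difference of 0.36 (SE 0.13, adjusted p = 0.145). Leaving out LCR sedentary 1 or 3 brought the adjusted p to 0.0485 or 0.042. These were the only 2 of 26 refits that called ND3, and in others the adjusted p rose to as much as 0.245.

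Relative to the other mitochondrial mRNAs, the separation of ND5 was cleaner. Its share of the counts of the 13 was 4.25% ± 0.681 in LCR sedentary rats, with a range of 3.36% to 5.09%. In HCR sedentary rats it was 2.93% ± 0.234, with a range of 2.53% to 3.26%, so the sedentary lines did not overlap. In runners the share was 3.69% ± 0.803 in LCR and 2.86% ± 0.249 in HCR, and the ranges of 2.83% to 4.64% and 2.55% to 3.16% overlapped. COX2 moved the opposite way, at 7.98% ± 0.242 in LCR and 8.89% ± 0.305 in HCR sedentary rats. Its ranges of 7.57% to 8.37% and 8.34% to 9.25% overlapped narrowly. ND1 was lower in HCR, as ND5 was, and its ranges of 6.59% to 7.97% in LCR and 6.13% to 6.62% in HCR sedentary rats also overlapped narrowly. These shares were looked at after the values of single genes had been seen, and no test was made of them.

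The ratio of ND5 to ND4 counts, both complex I mRNAs of the same precursor, showed how the LCR libraries spread. In LCR sedentary rats it was 0.224, 0.224, 0.230, 0.344, 0.326, 0.343, 0.311 and 0.276 for replicates 1 to 8. In HCR sedentary rats it stayed between 0.185 and 0.228. The LCR libraries 1 to 3 lay in or just above the HCR range and the other five above it. The LCR running libraries gave 0.219, 0.299, 0.197, 0.191 and 0.301, and the HCR running libraries 0.196, 0.224, 0.206, 0.175 and 0.207. All 13 HCR libraries were at or below 0.228, and 7 of the 13 LCR libraries were at or above 0.276. LCR running 5, with a conflicting title, was one of these 7, and HCR running 5 lay inside the HCR range.

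**Figure D2:**
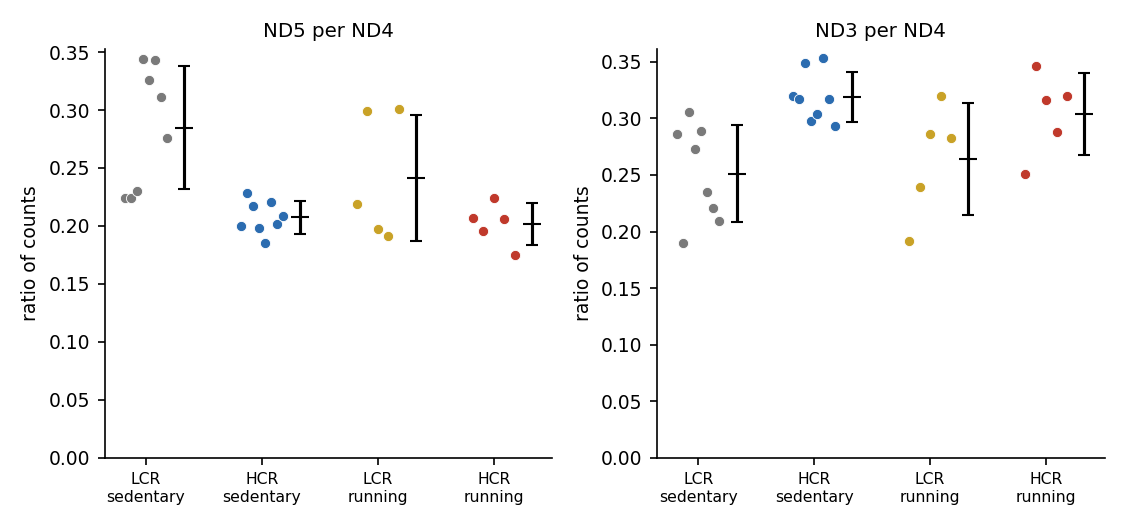
Counts of ND5 (left) and ND3 (right) per count of ND4 in each library, by group, with bars for mean ± SD. ND5 per ND4 lies between 0.175 and 0.228 in every HCR library and spreads from 0.191 to 0.344 in LCR libraries, and ND3 per ND4 averages 0.251 in LCR sedentary and 0.319 in HCR sedentary rats.

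Of the complex IV mRNAs, COX1, the catalytic subunit, separated the running lines. The LCR running libraries held 2064, 2171, 2539, 2695 and 2630 CPM and the HCR running libraries 2913, 3210, 3309, 2933 and 3314 CPM. The groups did not overlap, as was so for 1.02% of all genes in the same direction. COX1 had a log2 difference of 0.37 (SE 0.16, 95% interval 0.06 to 0.69, adjusted p = 0.455). If the 2 libraries with conflicting titles were moved to the line in their titles, at 3314 CPM in LCR and 2630 in HCR, the groups would overlap. Without these 2 libraries the LCR runners, at 2064 to 2695 CPM, and the HCR runners, at 2913 to 3309 CPM, did not overlap, and the difference was 0.38 (SE 0.19, adjusted p = 0.654). In sedentary rats COX1 overlapped between the lines, with a difference of 0.21 (SE 0.13, adjusted p = 0.444).

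COX2 and COX3 gave sedentary line differences of 0.26 and 0.13 (adjusted p = 0.187 and 0.593) and running line differences of 0.24 and 0.22 (adjusted p = 0.639 and 0.681). CYTB, the only mitochondrially encoded subunit of complex III, differed by 0.21 in sedentary and 0.11 in running rats (adjusted p = 0.333 and 0.896). ATP6, part of the proton channel of ATP synthase, differed by 0.07 and 0.24, and ATP8 by 0.01 and 0.10. ND1 and ND4L were within 0.04 of 0 in both line comparisons, and ND6 within 0.08. ND2, another proton-pumping subunit of complex I, had 0.22 and 0.32, and ND4 had 0.02 and 0.10.

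In the runners the mitochondrial mRNAs lay at or slightly below their sedentary level. In LCR rats 2 of 13 had a fold change above 0, with a median of -0.07, and in HCR rats 6 of 13, with a median of -0.04. ND4L, a small complex I subunit, had the smallest p of the 13 when the lines were averaged, at a log2 difference of -0.20 (SE 0.07, adjusted p = 0.229). None was called in either line by edgeR or DESeq2, and none had an unadjusted p under 0.05 within a line. Running called 0% of all genes in LCR and 0.0994% in HCR rats. Without LCR running 5 the median of the 13 in LCR rats was -0.16, and without LCR sedentary 1 it was -0.03. In HCR rats it was 0.04 without HCR sedentary 4, the library with the highest mitochondrial mRNA share.

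**Figure D3:**
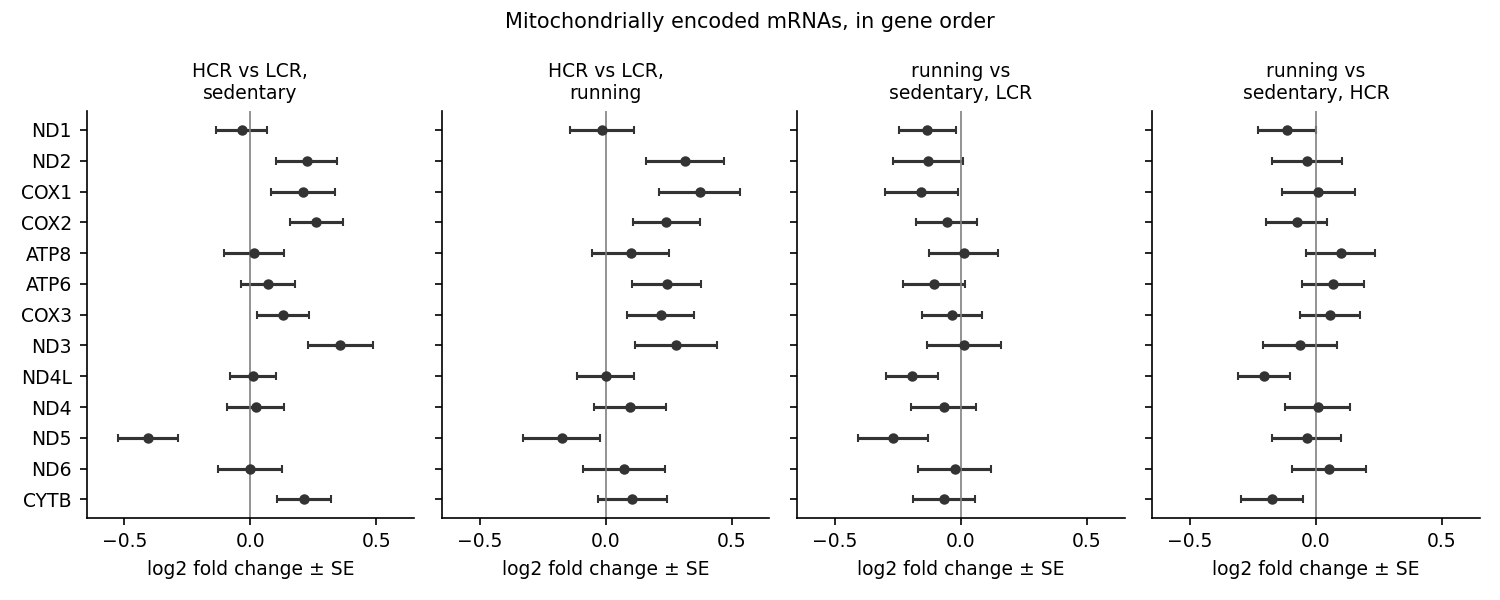
Log2 fold change ± SE (edgeR) of each mitochondrial mRNA, in gene order along the genome, in 4 comparisons. ND5 at -0.41 and ND3 at 0.36 lie farthest from 0 in the sedentary line comparison. In the comparisons of runners with sedentary rats of the same line no gene lies farther from 0 than -0.27.

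The ribosomal protein genes changed in the sedentary line comparison only singly. edgeR called 3 of 74 there, Mrps35 higher and Mrpl45 and Mrpl14 lower in HCR, against 2.72% of all genes (1.57% higher and 1.15% lower), a share near the background. At an unadjusted p under 0.05 there were 12 of 74, 2 higher and 10 lower, against 15.9% of all genes, 8.43% higher and 7.48% lower. In all, 35 of 74 had a fold change above 0 and the median was -0.01. DESeq2 called the same 3 genes. Between the sedentary lines the median log2 difference was -0.42 for the fast myofibre markers, 0.66 for adipocyte, 0.40 for Schwann cell, 0.22 for macrophage and 0.16 for fibroblast markers. None of these genes was called, and their part in these differences was not tested.

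Mrps35, a small subunit protein without a bacterial counterpart, stood at 107, 96.2, 99.3, 84.7, 64.8, 106, 85.5 and 98.4 CPM in the LCR sedentary libraries. The HCR sedentary libraries held 157, 173, 125, 153, 126, 140, 120 and 112 CPM. Every HCR value was above every LCR value, which held for 0.328% of all genes. Mrps35 differed by 0.58 on the log2 scale (SE 0.14, a fold change of 1.49, adjusted p = 0.0197), and it was called in all 26 refits that left out 1 library. Without the filter on low counts its adjusted p was 0.0636.

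In the runners Mrps35 spread over both levels. The LCR running libraries gave 111, 97.8, 140, 91.6 and 81.8 CPM, and the HCR running libraries 83.1, 136, 144, 69.6 and 154 CPM. HCR running 1 and 4 lay at the LCR level and the other three at the HCR sedentary level. The line difference was 0.16 (SE 0.18, 95% interval -0.20 to 0.51, adjusted p = 0.88). The difference of the running responses was -0.42 (SE 0.23, adjusted p = 0.852), so the size in runners was not shown to differ from that in sedentary rats.

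Mrpl45, a large subunit protein beside the exit tunnel that holds the ribosome to the inner membrane, was lower in HCR. It ran from 160 through a median of 180 to 246 CPM in LCR sedentary rats and from 79.9 through 124 to 190 CPM in HCR sedentary rats. The ranges overlapped, with HCR sedentary 6 at 190 CPM above 5 of the 8 LCR values. The log2 difference was -0.57 (SE 0.14, adjusted p = 0.0301). The call was lost in 4 of 26 refits, without LCR sedentary 6 or 7 or HCR sedentary 3 or 8, with adjusted p from 0.052 to 0.0594. It was also lost when only the 2 sedentary groups entered the fit (adjusted p = 0.0619) and without the filter on low counts (adjusted p = 0.0658).

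Running libraries held 196, 163, 178, 131 and 207 CPM of Mrpl45 in LCR and 164, 128, 147, 190 and 126 CPM in HCR. The groups overlapped, and the difference was -0.21 (SE 0.18, adjusted p = 0.821).

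Mrpl14, a conserved large subunit protein at the face that meets the small subunit, ran from 68.2 through a median of 82.9 to 102 CPM in LCR sedentary rats and from 44.2 through 67.0 to 76.6 CPM in HCR sedentary rats. Only LCR sedentary 5, at 68.2 CPM, fell inside the HCR range. The log2 difference was -0.41 (SE 0.11, adjusted p = 0.0391), and the call was kept in 17 of 26 refits, with adjusted p up to 0.0912 without HCR sedentary 3. In runners the libraries held 92.8, 71.5, 71.8, 79.6 and 72.1 CPM in LCR and 84.1, 89.0, 109, 57.2 and 79.7 CPM in HCR. The HCR runners thus included the highest and the lowest value, and the difference was 0.12 (SE 0.14, adjusted p = 0.888).

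**Figure D4:**
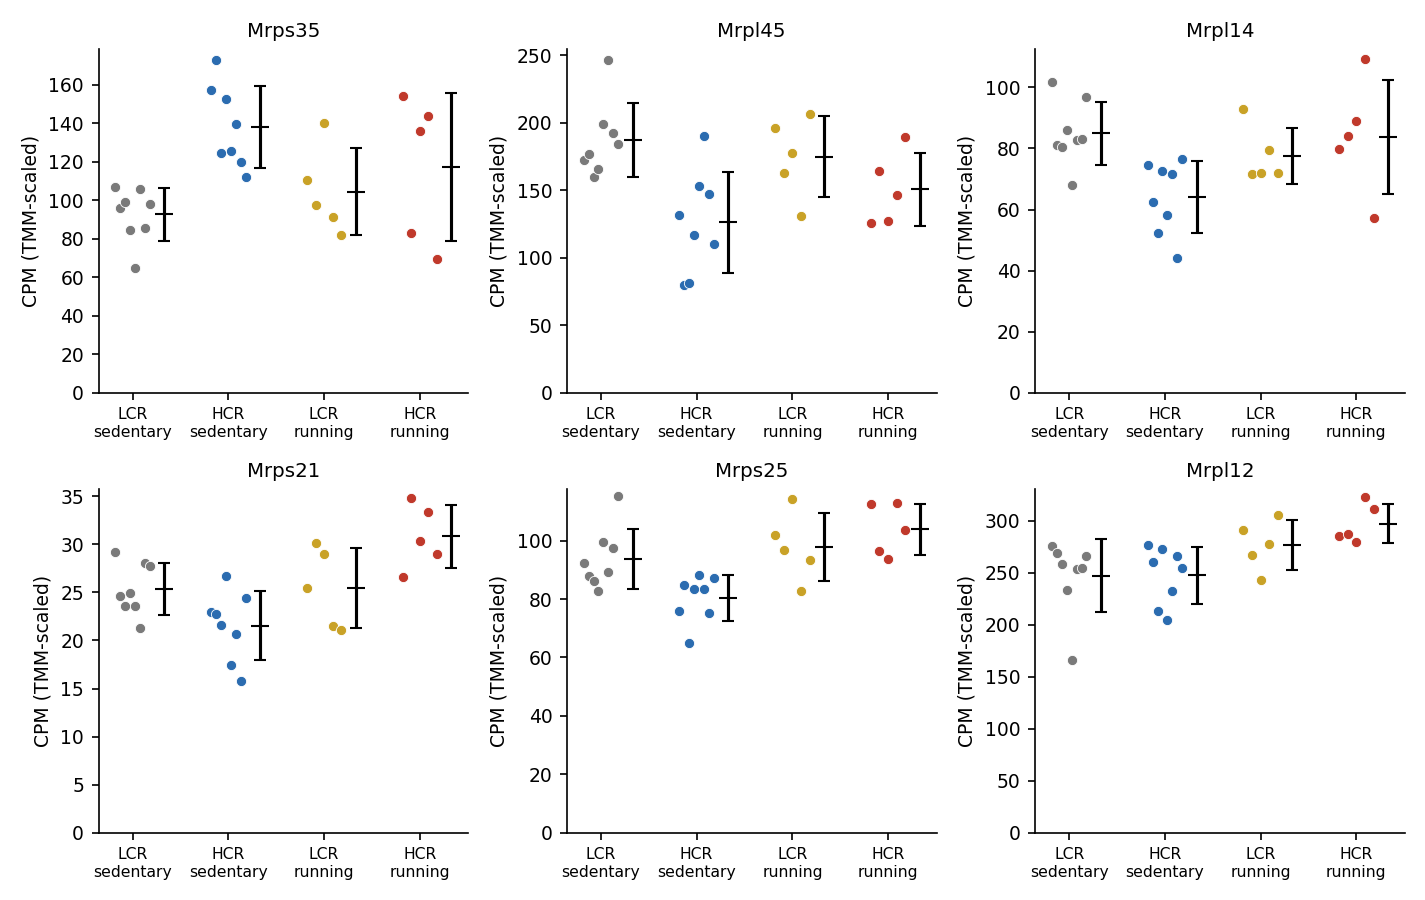
CPM of 6 mitochondrial ribosomal protein genes in each library, by group, with bars for mean ± SD. Mrps35 in HCR sedentary rats (112 to 173 CPM) lies above LCR sedentary rats (64.8 to 107 CPM), and Mrps25 and Mrpl12 in HCR runners lie above all HCR sedentary rats.

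Genes near the threshold in that comparison were Mrps24, with a log2 difference of -0.29 (SE 0.10, adjusted p = 0.0961), Mrps25, with -0.23 (SE 0.08, adjusted p = 0.134), and Mrps18b, with -0.22 (SE 0.09, adjusted p = 0.164). At an unadjusted p under 0.05, 6 of 45 large subunit and 4 of 29 small subunit genes were lower, against 7.48% of all genes. Mrps18b was called in 1 of 26 refits, without LCR sedentary 5 (-0.28, adjusted p = 0.0424), with adjusted p up to 0.296 in the others. Of its paralogues, Mrps18c had 0.02 (adjusted p = 0.969), and Mrps18a, whose protein sits in the large subunit despite its symbol, had -0.12 (adjusted p = 0.67). Mrpl47 had 0.23 (SE 0.11, adjusted p = 0.307) and was the other gene higher at an unadjusted p under 0.05.

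Gadd45gip1 encodes a large subunit protein near the exit tunnel and falls outside the Mrp naming. It was lower in LCR, at 27.3 ± 7.16 CPM (19.4 to 35.7) in LCR sedentary and 42.9 ± 5.80 CPM (34.6 to 54.0) in HCR sedentary rats. Gadd45gip1 differed by 0.64 on the log2 scale (SE 0.13, adjusted p = 0.00399). In runners it was 29.0 ± 4.70 CPM (22.0 to 33.5) in LCR and 46.8 ± 8.21 CPM (36.3 to 54.7) in HCR, with a difference of 0.68 (SE 0.17, adjusted p = 0.0503). The running lines did not overlap, as was so for 1.02% of all genes in the same direction. Of the 5 listed ribosomal proteins outside the Mrp naming it was the only one called, between the sedentary lines, where 2.72% of all genes were called.

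In running rats no ribosomal protein gene was called between the lines by edgeR, which called 0.626% of all genes, or by DESeq2, which called 0.914%. An unadjusted p under 0.05 was reached by 2 of 74, against 8.58% of all genes (4.47% higher and 4.10% lower). Both were large subunit genes and higher in HCR, Mrpl54 with 0.39 (SE 0.15, adjusted p = 0.357) and Mrpl36 with 0.52 (SE 0.23, adjusted p = 0.475). The fold change was above 0 for 56 of 74 genes, with a median of 0.08, and for 42 of 74 with a median of 0.03 when the 2 libraries with conflicting titles took the line in their titles. Without these libraries 53 of 74 were above 0, with a median of 0.05. The fast marker list had a median of -0.79 in this comparison, and its part in these values was not tested.

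In HCR rats most ribosomal protein genes had a small positive difference between runners and sedentary rats, and none was called by edgeR, which called 0.0994% of all genes. The fold change was above 0 for 64 of 74 genes, with a median of 0.16 on the log2 scale, against 49.1% of all genes and a median of 0.00. The large subunit had 41 of 45 above 0 with a median of 0.16, and the small subunit 23 of 29 with a median of 0.12. At an unadjusted p under 0.05 there were 16 of 74, 15 higher and 1 lower, against 12.5% of all genes, 6.33% higher and 6.21% lower. Over refits without 1 library the median stayed between 0.13 and 0.19, with 61 to 66 genes above 0.

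Mrps21, a small subunit protein with a bacterial counterpart, had the smallest p in that comparison. It stood at 23.0, 22.8, 21.6, 26.7, 17.5, 20.7, 15.7 and 24.4 CPM in HCR sedentary rats and at 34.8, 30.4, 33.3, 29.0 and 26.6 CPM in HCR runners. The groups met only at HCR sedentary 4 and HCR running 5. Mrps21 thus had a log2 difference of 0.53 (SE 0.13, 95% interval 0.27 to 0.79, adjusted p = 0.0857). It was called in 1 of 26 refits that left out 1 library, the one without HCR sedentary 4 (adjusted p = 0.0403). In the other refits the adjusted p rose to as much as 0.325. In LCR rats the same difference was 0.02 (SE 0.13, adjusted p = 0.997). Under the line in its title LCR running 5, at 21.1 CPM, would be an HCR runner inside the HCR sedentary range.

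Mrps25, a small subunit protein mutated in a human mitochondrial muscle and brain disease, was at 76.1, 84.7, 65.1, 83.6, 88.1, 83.5, 75.1 and 87.2 CPM in HCR sedentary rats. The HCR runners held 96.5, 93.9, 113, 104 and 112 CPM. All runners were above all sedentary rats, as held for 0.378% of all genes. The log2 difference was 0.37 (SE 0.09, adjusted p = 0.0899). DESeq2 called it (0.37, adjusted p = 0.0292), in a comparison in which it called 0.785% of all genes, and gave no adjusted p for Mrps21.

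Mrpl12, the stalk protein of the large subunit that has also been reported to bind the mitochondrial RNA polymerase, was the second gene without overlap. The HCR runners held 280 to 323 CPM and the HCR sedentary rats 205 to 277 CPM, with a log2 difference of 0.26 (SE 0.10, adjusted p = 0.237). In LCR rats the ranges of 243 to 305 and 166 to 276 CPM overlapped (0.16, adjusted p = 0.843).

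The other genes with an unadjusted p under 0.05 and a positive difference in HCR runners included Mrpl2 (0.59, adjusted p = 0.231), Mrps12 (0.41, 0.185), Mrpl14 (0.40, 0.177) and Mrps24 (0.31, 0.224). Mrpl2, Mrps12 and Mrpl14 have bacterial counterparts in the ribosome core. Mrps31, a small subunit protein without one, was the only member lower at that level, with -0.36 (SE 0.15, adjusted p = 0.298). Mrps36, whose product is now assigned to the oxoglutarate dehydrogenase complex, had 0.25 (SE 0.11, adjusted p = 0.333).

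In LCR rats running gave 58 of 74 genes a fold change above 0, with a median of 0.06, against 50.3% of all genes and a median of 0.00. There were 0 calls among the members by edgeR or by DESeq2, which called 0.0199% of all genes. An unadjusted p under 0.05 was reached by 3 genes, all higher, against 6.08% of all genes (2.89% higher and 3.19% lower). They were Mrps27 (0.42, SE 0.18), Mrpl34 (0.32, SE 0.15) and Mrpl33 (0.16, SE 0.07), all with adjusted p of 0.763 or more. Mrps27 belongs to the pentatricopeptide family of RNA-binding proteins, and Mrpl34 and Mrpl33 are small proteins of the large subunit.

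Averaged over the lines, 66 of 74 genes were above 0 with a median of 0.11, and 13 had an unadjusted p under 0.05, all higher, against 12.7% of all genes (6.74% higher and 5.97% lower). None was called by edgeR, which called 0.378% of all genes, or by DESeq2, which called 0.745%. Mrpl34 had the smallest p (0.35, SE 0.10, adjusted p = 0.132), followed by Mrps25 (0.21, SE 0.07, adjusted p = 0.148) and Mrpl12 (0.21, SE 0.07, adjusted p = 0.158).

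The difference of the running responses was above 0 (larger in HCR) for 53 of 74 ribosomal protein genes, with a median of 0.07. No gene of the table was called by edgeR or DESeq2, 0% of all genes, and 5 members had an unadjusted p under 0.05, all above 0, against 5.88% of all genes (2.87% above and 3.01% below). They were Mrpl14 (0.53, SE 0.18), Mrps21 (0.51, SE 0.19), Mrps24 (0.42, SE 0.16), Mrps18b (0.35, SE 0.14) and Mrps25 (0.31, SE 0.13). Between the sedentary lines, whose libraries this difference shares, the same genes in that order had log2 differences of -0.41, -0.24, -0.29, -0.22 and -0.23. The smallest adjusted p among the members was 0.835, so no difference in response between the lines was detectable. For the 13 mitochondrial mRNAs it had a median of 0.08, with 9 above 0 and none at an unadjusted p under 0.05.

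**Figure D5:**
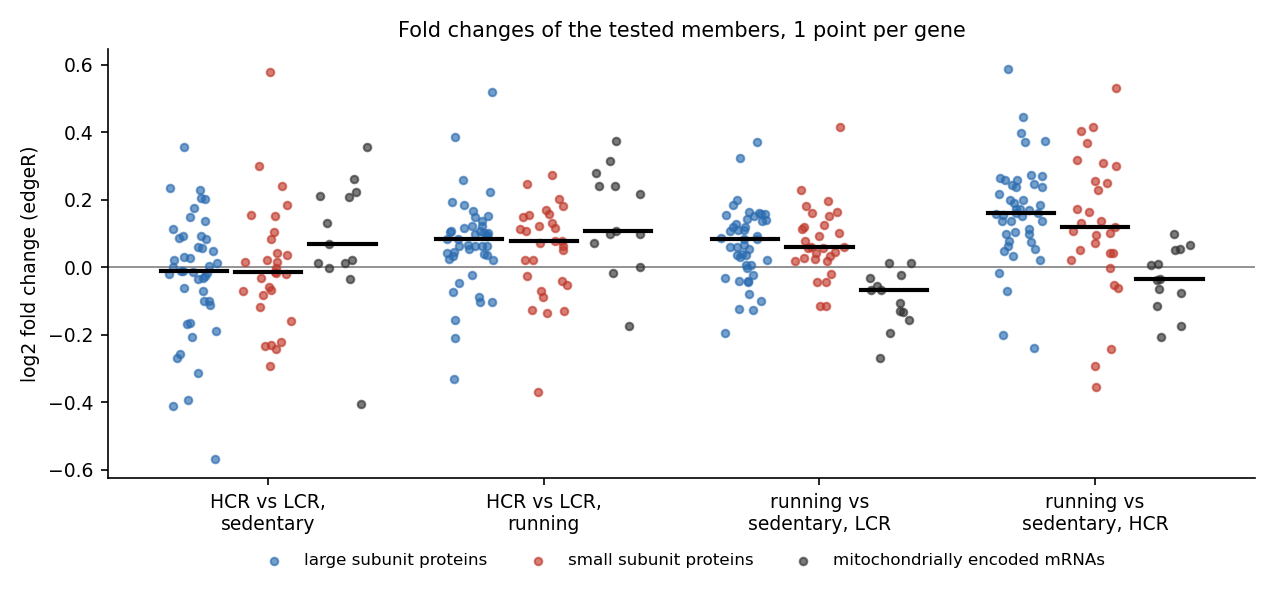
Log2 fold changes (edgeR) of the 87 tested members in 4 comparisons, 1 point per gene, with a line at the median of the large subunit, small subunit and mitochondrial mRNA sets. For running in HCR rats the medians are 0.16, 0.12 and -0.04, and for running in LCR rats 0.08, 0.06 and -0.07.

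For running in LCR rats the medians lay on opposite sides of 0, at 0.06 for the ribosomal protein genes and -0.07 for the mitochondrial mRNAs. Each was smaller in size than the SD between single libraries given below, which is not the error of a group difference. In HCR rats the mitochondrial mRNA median was -0.04. It was above 0 without HCR sedentary 2 (0.01), HCR sedentary 4 (0.04), HCR running 1 (0.04) or HCR running 2 (0.00). Over refits without 1 library the HCR medians stayed between 0.13 and 0.19 for ribosomal protein genes and between -0.07 and 0.04 for mitochondrial mRNAs. In LCR rats they stayed between 0.04 and 0.08 and between -0.16 and -0.03. These refits share most of their libraries, and a separation of the sets was not tested in either line. The library medians of log2 CPM, taken relative to each gene's mean, ran for the ribosomal protein genes from -0.20 to 0.11 in HCR sedentary rats and from -0.01 to 0.23 in HCR runners, so the groups overlapped. For the mitochondrial mRNAs they ran from -0.21 to 0.47 and from -0.18 to 0.24. The LCR groups overlapped too. For the ribosomal protein genes the medians ran from -0.19 to 0.09 in LCR sedentary rats and from -0.07 to 0.16 in LCR runners. For the mitochondrial mRNAs they ran from -0.61 to 0.29 and from -0.24 to 0.10 in these LCR groups. The SD of these medians within groups was 0.0858 for the ribosomal protein genes and 0.218 for the mitochondrial mRNAs. LCR sedentary 5 was lowest of its group in both sets, and HCR sedentary 4 highest of its group in both.

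Among the tested ribosomal protein genes the spread within groups was lowest for Mrpl33, with an SD of 0.0937 on the log2 scale, and highest for Mrpl40, with 0.528 at a mean of 6.63 CPM and 304 counts in all. The median SD was 0.225 over the 74 genes, 0.244 over the 13 mitochondrial mRNAs, 0.192 over 80 nuclear genes of the respiratory chain and 0.298 over all genes tested. Mrpl33 was at 189 ± 6.87 CPM in HCR running and 186 ± 6.02 CPM in HCR sedentary rats, with 210 ± 20.3 in LCR running and 188 ± 14.4 in LCR sedentary rats. Mrpl27, a protein near the peptidyl transferase centre, was at 251 ± 28.6, 220 ± 16.2, 257 ± 9.13 and 244 ± 37.6 CPM in LCR sedentary, HCR sedentary, LCR running and HCR running rats. Mrpl15 stood at 262 ± 31.1, 234 ± 29.9, 263 ± 23.2 and 274 ± 50.8 CPM in the same order, and its groups overlapped.

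Genes that serve the mitochondrial ribosome were not called in any comparison by edgeR, and 0 to 3 genes of each list had an unadjusted p under 0.05. Over all genes the 6 comparisons called 0% to 2.72%, and 5.88% to 15.9% had an unadjusted p under 0.05. The lists held 22 tested translation factors, 22 ribosome assembly factors, 15 aminoacyl-tRNA synthetases, 16 genes of mitochondrial transcription and DNA upkeep and 21 of RNA processing. Among the translation factors Tufm, the elongation factor that brings aminoacyl-tRNA to the ribosome, had the smallest p between the running lines (0.39, SE 0.12, adjusted p = 0.19). It stood at 72.9 ± 11.3 CPM in LCR and 95.8 ± 15.8 CPM in HCR runners, and the ranges of 57.9 to 87.1 and 79.9 to 117 CPM overlapped. Running in HCR rats gave it 0.31 (SE 0.11, adjusted p = 0.212), with 18 of the 22 translation factors above 0.

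Twnk, the helicase of mitochondrial DNA, had the smallest p of the transcription and upkeep list for running in HCR rats, at 63.1 ± 11.4 CPM in sedentary and 84.5 ± 10.3 CPM in running rats (0.41, SE 0.12, adjusted p = 0.118). Trub2, a pseudouridine synthase of mitochondrial RNA, had 0.23 for running averaged over the lines (SE 0.07, adjusted p = 0.115). Lars2, the mitochondrial leucyl-tRNA synthetase, was at 22.4 ± 4.70 CPM in LCR and 15.8 ± 3.58 CPM in HCR sedentary rats (-0.50, SE 0.16, adjusted p = 0.0798).

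The 80 nuclear-encoded subunits of the respiratory chain, which assemble with the products of the mitochondrial mRNAs, had for running in HCR rats 72 genes above 0, a median of 0.20 and 37 higher at an unadjusted p under 0.05, against 6.33% of all genes, with none called. Averaged over the lines Uqcrh, a complex III subunit, was called (0.26, adjusted p = 0.0491), in a comparison that called 0.378% of all genes. Between the sedentary lines 24 of the 80 were above 0, against 51.4% of all genes. Ndufs5, a complex I subunit, was called lower in HCR there (-1.89, adjusted p = 0.00124), where 2.72% of all genes were called. Its level was low, at 8.21 ± 3.05 CPM in LCR and 2.21 ± 1.43 CPM (0 to 4.62) in HCR sedentary rats. The median level of the 80 genes was 288 CPM. Cytosolic ribosomal proteins called between the sedentary lines were Rpl10a and Rps28, higher in HCR, and Rpl19 and Rpl6, lower. Rpl10a spread from 12.5 to 86.6 CPM in LCR and from 96.5 to 138 CPM in HCR sedentary rats. Rpl19 and Rpl6 were also called lower between the running lines (0.626% of all genes). For running in LCR rats 67 of the 80 respiratory chain genes were above 0, with a median of 0.09. Of the 79 tested cytosolic ribosomal proteins 69 were above 0 there, with a median of 0.08. For running in HCR rats the cytosolic ribosomal proteins had 26 above 0 and a median of -0.04. In the same comparison the median of the marker lists was -0.41 for fast and 0.18 for slow myofibres, -0.67 for adipocytes, -0.43 for Schwann cells, -0.36 for fibroblasts, -0.20 for smooth muscle, -0.19 for endothelium and -0.02 for macrophages. No marker gene was called there, and the part of these cell types in the differences of the ribosomal protein and respiratory chain genes was not tested. The mitochondrial ribosomal RNAs took 5.34% ± 0.663 of the counts in LCR sedentary, 6.00% ± 0.631 in HCR sedentary, 5.79% ± 0.654 in LCR running and 6.61% ± 0.658 in HCR running rats. Neither was called in any comparison, and they were added after values had been seen.

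Promoter sequence was not used in choosing the members. RefSeq promoters (build GRCr8, 250 bases before to 50 after the start, in all 300 bases) were found for 60 of the 76 ribosomal protein genes. The ETS core CCGGAAG, the element of factors such as NRF-2 (GABP), was present on either strand in 21 of the 60 (35.0%), against 9.22% of 27457 promoters of the table. The NRF-1 palindrome CGCATGCG was present in 6 of the 60 (against 1.81%), and the YY1 element AAGATGGCG, searched on both strands, in 9 (15.0%, against 1.93%). None of these 3 motifs contains another. Most of the 60 promoters held none of a given motif. Among 71 promoters of nuclear respiratory chain genes the ETS core was in 29.6%, the NRF-1 palindrome in 11.3% and the YY1 element in 14.1%, and among 64 of cytosolic ribosomal proteins the shares were 31.2%, 1.56% and 4.69%. A promoter of a gene on the opposite strand overlapped 15 of the 60 (25.0%, against 9.67% of all promoters and 31.0% of those of nuclear respiratory chain genes), as between Mrpl46 and Mrps11, whose promoters overlap each other, and Mrpl47 and the complex I gene Ndufb5. A match describes letters in this window and no binding.

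Mrps35 is not in the promoter table. The promoters of 5 other genes named above are given 5′ to 3′ on the gene's strand, with matches to the motifs in capitals. Of these, edgeR called only Mrpl14 and Mrpl45 in the main fit. Mrps21 (minus strand, chr2:186103302-186103601) and Mrps18b (plus strand, chr20:2842756-2843055) hold an ETS core, read as CTTCCGG on the strand shown, and Mrps18b also holds the NRF-1 palindrome. Mrps25 (minus strand, chr4:126237163-126237462), Mrpl14 (minus strand, chr9:22811184-22811483) and Mrpl45 (plus strand, chr10:82804789-82805088) hold none of the 3 motifs and stand in lower case throughout.
Mrps21: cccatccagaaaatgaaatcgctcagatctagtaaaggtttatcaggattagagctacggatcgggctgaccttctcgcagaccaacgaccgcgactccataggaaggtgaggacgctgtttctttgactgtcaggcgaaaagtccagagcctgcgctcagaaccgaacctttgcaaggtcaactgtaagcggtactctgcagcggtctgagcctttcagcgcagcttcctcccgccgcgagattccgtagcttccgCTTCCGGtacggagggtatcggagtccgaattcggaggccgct
Mrps18b: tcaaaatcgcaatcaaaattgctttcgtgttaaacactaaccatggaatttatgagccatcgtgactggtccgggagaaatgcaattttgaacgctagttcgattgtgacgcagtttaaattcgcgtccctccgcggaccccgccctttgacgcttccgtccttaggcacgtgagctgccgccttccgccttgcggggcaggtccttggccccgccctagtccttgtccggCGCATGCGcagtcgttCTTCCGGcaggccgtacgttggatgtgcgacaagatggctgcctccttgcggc
Mrps25: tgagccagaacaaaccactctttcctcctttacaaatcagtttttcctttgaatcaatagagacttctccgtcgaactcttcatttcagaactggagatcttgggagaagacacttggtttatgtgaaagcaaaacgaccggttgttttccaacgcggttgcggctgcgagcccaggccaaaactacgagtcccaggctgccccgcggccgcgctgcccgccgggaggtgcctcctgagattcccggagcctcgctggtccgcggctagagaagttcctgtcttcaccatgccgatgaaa
Mrpl14: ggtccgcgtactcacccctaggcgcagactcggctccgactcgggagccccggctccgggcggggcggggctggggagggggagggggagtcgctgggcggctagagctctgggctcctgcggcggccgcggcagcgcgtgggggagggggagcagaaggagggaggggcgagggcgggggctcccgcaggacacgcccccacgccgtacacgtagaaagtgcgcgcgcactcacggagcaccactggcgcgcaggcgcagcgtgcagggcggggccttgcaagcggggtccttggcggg
Mrpl45: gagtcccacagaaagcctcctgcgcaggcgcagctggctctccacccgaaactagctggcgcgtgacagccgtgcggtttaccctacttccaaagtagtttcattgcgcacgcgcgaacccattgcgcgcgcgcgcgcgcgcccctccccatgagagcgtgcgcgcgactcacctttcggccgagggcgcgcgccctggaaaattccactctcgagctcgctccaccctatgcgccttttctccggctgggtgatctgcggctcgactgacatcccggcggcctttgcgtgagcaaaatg

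Mrps21 and Mrps25 had the smallest p for running in HCR rats, and Mrps21 holds an ETS core while Mrps25 does not. Mrpl14 and Mrpl45, both called lower in HCR sedentary rats, hold none, and the Mrpl14 promoter has the highest GC content of the 60, at 76.7%. RefSeq lists 40 pseudogene entries under symbols of 23 of the ribosomal protein genes, including Mrpl45, Mrps21, Mrps25 and Mrps18b. None of them is a gene of the count table, so the counts of those genes are uncertain to the extent that reads from copies were assigned to them.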

How the data were processed

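Poly(A)-primed 3′ RNA sequencing (QuantSeq, per the labels' protocols) measured soleus RNA in 26 libraries. The authors deposited raw counts per gene, as whole numbers with unequal library totals. Tools named in the submitters' processing notes are STAR, featureCounts, cutadapt, UMI-tools, FastQC and MultiQC, with the assembly mRatBN7.2 (rn7). Collapsing of molecular identifiers, use of strand and treatment of reads with several matches are not given in the sources used here, so totals may overstate the precision, and overlapping genes cannot be told apart.

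Each library was taken as 1 rat, from its sample name, in the group that its genotype and description give. edgeR 4.0.16 (R 4.3.3) fitted all 26 libraries together without covariates, using filterByExpr by group, TMM scaling and a robust quasi-likelihood fit, with 6 contrasts and Benjamini-Hochberg adjustment over 10064 genes. Called means an adjusted p under 0.05. The biological coefficient of variation was 0.156. CPM used TMM factors, shares used raw totals, and each SE was derived from the F statistic. DESeq2 1.42.0 was an alternative, with others in the closing section. Genes to which DESeq2 gave no adjusted p, such as Mrps21 for running in HCR rats, counted as not called. Its shares are of all 10064 genes. The members and gene lists were chosen with earlier results of these data known, so sets are described without a test.

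Named genes were the 13 mitochondrial mRNAs, called members, the 3 smallest p in each direction per contrast, the 5 highest mean CPM, Mrpl12, Mrps36, the Mrps18 paralogues, and called or smallest-p genes of the other lists. Mrpl2 and Mrps12, like the composition shares, were chosen after their values were seen. Tested on simulated data, the fit recovered 46% of genes changed by 1.5 times and 90.5% of those changed by 2 times between sedentary lines, and 39% and 80.5% for running in HCR rats. No pair of libraries agreed within sampling noise (lowest chi-square per degree of freedom 2.09). Promoters come from RefSeq, taking the first listed where a gene has several.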

Additional observations from a re-analysis of the deposited data

Results flagged for a closer look

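In 9 of 176 sets of values (5.11%) 1 library stood apart from the rest of its group, by Dixon's 95% critical value for the gap to the nearest library. Chance gives about 1 in 20. In HCR running rats ND4L was at 323 CPM in replicate 5 (next 245), Mrpl40 at 9.76 CPM in replicate 2 (next 6.13) and Mrpl27 at 308 CPM in replicate 3 (next 238). In HCR sedentary rats replicate 4 had 395 CPM of ND4L (next 289) and 27.4 CPM of Mrps27 (next 15.8). In LCR running rats replicate 5 had 2310 CPM of ND1 (next 2020) and a low 21.1 CPM of Mrpl34 (next 32.5). In LCR sedentary rats Mrpl45 was at 246 CPM in replicate 6 (next 199), and Mrpl12 at a low 166 CPM in replicate 5 (next 233). The Mrpl45 value bears on its line difference, which was -0.51 with an adjusted p of 0.0594 (edgeR) without that library.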

How the results depend on the processing

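No result reversed under the alternatives run. Between the sedentary lines the count of called mitochondrial mRNAs was 0, and 1 (ND5) with DESeq2, without the 2 libraries with conflicting titles, or with only the groups of the contrast. The count of called ribosomal protein genes there was 3, and 1 (Mrpl14) without the low-count filter, which tests more genes, and 2 (Mrps35 and Mrpl14) with only the groups of the contrast. Over all genes, the running line difference had 63 calls, and 0 with the titles' lines, 35 without the 2 conflicting libraries and 35 with only the 2 groups. Running in LCR rats had 0 calls, and 2 without the filter, 2 with DESeq2 and 1 without the conflicting libraries. Running in HCR rats had 10 calls, and 79 with DESeq2, with 1 ribosomal protein gene (Mrps25) in place of 0. Running averaged over lines had 38 calls, 75 with DESeq2 and 19 with the replicate block.

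Without 1 library at a time, calls over all genes ranged from 182 to 337 (sedentary lines), 32 to 67 (running lines), 0 to 2 (running, LCR), 4 to 38 (running, HCR) and 9 to 63 (running, averaged). The ends of the last came without LCR running 1 (9) and LCR running 5 (63). Those of HCR running came without HCR running 3 (4) and HCR sedentary 4 (38). Called ribosomal protein genes ranged from 1 to 4 between sedentary lines (1 without LCR sedentary 6, LCR sedentary 7 or HCR sedentary 3) and from 0 to 1 for running in HCR rats, and called mitochondrial mRNAs from 0 to 1 between sedentary lines. The causes were not tested. With nuclear gene counts as the denominator the mitochondrial mRNA share was 3.42% in LCR sedentary, 3.81% in HCR sedentary, 3.18% in LCR running and 3.67% in HCR running rats, and the ribosomal protein share was 0.541% in LCR sedentary, 0.541% in HCR sedentary, 0.556% in LCR running and 0.586% in HCR running rats.

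Libraries of equal number share only a number. The labels give no common animal, litter or day, 3 of 33 same-number pairs had deviations correlated over 0.1 (range -0.213 to 0.252), and 2 of 26 libraries correlated best with their own number. The replicate block kept the calls of Mrps35 (adjusted p = 0.0328), Mrpl45 (0.00167) and Mrpl14 (0.0301). Depth limits the rarest members, such as Mrpl40 with 304 counts in all, and smaller fold changes: at 1.5 times, the simulated test for running in LCR rats recovered 30.5% of changed genes.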
